A study of Mus musculus with 33 samples.

Results

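The renin-angiotensin system genes described here are the 6 rows of the deposited mouse ovary count table whose identifiers map to Ren1, Agt, Ace, Agtr1a, Agtr2 and Atp6ap2, out of 54347 gene identifiers in all. They were chosen by symbol and not by their values, and all 6 passed the filter on low counts in every comparison. They were followed through 33 libraries of polyadenylated ovary RNA in 9 groups and 3 experiments. Experiment 1 held 3 libraries each from ovaries labelled WT, Fshb(+/-), called Het here, and Fshb(-/-), called KO here. Experiment 2 held 4 KO libraries and 4 of the genotype Fshb(-/-) HFSHB, called R after its title, in which the null mouse alleles are combined with HFSHB, the field's name for a human FSHB transgene. The promoter that drives it is not given in the sources used here, and the KO and R groups of experiment 2 share the null alleles. Experiment 3 held 4 libraries each from WT mice staged as DE, PE and E of the estrous cycle, and 4 whose stage reads KO (anestrus) while their genotype field reads WT; these are called KO after the stage and the title. Fshb encodes the beta subunit of follicle-stimulating hormone, a pituitary hormone that drives follicle growth. Ages, strains and whether libraries came from separate animals are not given in the labels, so p-values measure the spread between these libraries.

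The renin-angiotensin system makes a short peptide hormone in steps. Renin, the product of Ren1, cuts the precursor angiotensinogen, the product of Agt, to angiotensin I, and angiotensin-converting enzyme, the product of Ace, trims angiotensin I to the active angiotensin II. Angiotensin II acts through the receptor encoded by Agtr1a, which raises vascular tone and salt retention in the body at large, and through the receptor encoded by Agtr2, which in the ovary is known mainly from granulosa cells and follicles. Atp6ap2 encodes the (pro)renin receptor, which binds renin and its precursor and is also an accessory part of the vacuolar proton pump. The ovary is one of the tissues with a local renin-angiotensin system, and theca cells are a known ovarian source of renin.

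On GRCm38 the genes lie apart from each other, on 5 chromosomes. Ren1 (ENSMUSG00000070645.5) spans chr1:133350510-133360325 on the plus strand, and Agt (ENSMUSG00000031980.10) spans chr8:124556534-124569706 on the minus strand. Ace (ENSMUSG00000020681.14) spans chr11:105967945-105989964 on the plus strand. The antisense gene Gm11651 overlaps its exons but held at most 0.0733 CPM in any library, CPM being the counts-per-million unit after library sizes are scaled within an experiment by the trimmed mean of M values (TMM). Agtr1a (ENSMUSG00000049115.15) spans chr13:30336441-30382867, Agtr2 (ENSMUSG00000068122.10) spans chrX:21484544-21489164 and Atp6ap2 (ENSMUSG00000031007.2) spans chrX:12587801-12617049. Some mouse strains carry Ren2, a near copy of Ren1 that has no row in the table, so Ren1 values may include its reads and are uncertain in that sense. Agtr1b, the near copy of Agtr1a, held 0 to 3 counts in each library.

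The 3 genes that differed most often between groups, Ren1, Agt and Ace, each have a RefSeq promoter with a TATA box motif just upstream of the start site, which is why these windows are shown. RefSeq promoters (GRCm38.p6) were matched for 5 of the 6 genes and Agtr1a was not matched. Ace has 2 entries, and the second, chr11:105974939-105975188, holds no TATAAA or TTTATA, so the Ace windows shown are those of the first. Each 30-base window below covers bases -40 to -11 from the RefSeq start of transcription, 5′ to 3′ on the gene's own strand, with the letters of the TATA box motif TATAAA, or its reverse complement TTTATA, in capitals.
Ren1, chr1:133350634-133350663, plus strand: tacatggtgtgTATAAAagaaggctcaggg
Agt, chr8:124569717-124569746, minus strand: accccttgagTATAAAtaagcctgcttggc
Ace, chr11:105967908-105967937, plus strand: tggctgggtTTTATAatccgcagggcggtc

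The motif starts 29 bases before the start of Ren1, 30 bases before that of Agt and 31 bases before that of Ace. TATAAA on either strand was found in 12.4% of the 32851 RefSeq promoter windows of 250 bases. It was not found in the windows of Agtr2 or Atp6ap2, but only these exact letters were searched. The Agtr2 window holds tatataag, a near variant, in the bases just before the start of transcription. The absence of TATAAA there is thus not the absence of a TATA box. The longer windows of Agt and Ace, from 250 to 4 bases before the start, show how differently the 2 promoters are built around TATAAA or TTTATA.
Agt, chr8:124569710-124569956, minus strand: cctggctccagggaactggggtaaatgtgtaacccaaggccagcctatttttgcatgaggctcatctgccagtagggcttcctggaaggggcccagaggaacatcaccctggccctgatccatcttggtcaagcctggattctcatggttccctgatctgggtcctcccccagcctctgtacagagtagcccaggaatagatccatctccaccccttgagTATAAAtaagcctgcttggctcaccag
Ace, chr11:105967698-105967944, plus strand: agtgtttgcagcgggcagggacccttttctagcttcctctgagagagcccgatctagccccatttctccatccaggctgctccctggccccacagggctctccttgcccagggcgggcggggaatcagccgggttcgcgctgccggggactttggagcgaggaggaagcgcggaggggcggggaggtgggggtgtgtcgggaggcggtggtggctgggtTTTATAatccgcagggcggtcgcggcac

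G and C made up 67.2% of the 250 bases before the first Ace start, 55.6% of those before Agt, 51.6% of those before Ren1 and 38.4% of those before Agtr2, beside a median of 52.4% over all promoters. Of 4 other motifs searched on both strands, AAGGTCA was present in 4.08% of all promoter windows, TGACGT in 6.47%, TGTTTAC in 3.17% and AGATAA in 9.99%. None of the 4 was in the windows of Ren1, Agt or Ace, both Ace entries included, and TGACGT was in that of Atp6ap2, 62 to 57 bases before its start. A match of letters is a description and not evidence of a binding site.

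Library totals ran from 13587252 to 16931710 counts in experiment 1, 19633256 to 23700051 in experiment 2 and 10085367 to 15925103 in experiment 3. Fshb, the targeted gene, went against the labels in experiment 1: the libraries labelled WT held 1, 1 and 0 counts and those labelled KO held 68, 79 and 82. Those 2 groups did not overlap, as was so for 18.3% of genes higher in KO. The Het libraries, with 43, 60 and 106 counts, lay with KO. In experiment 2 Fshb was at 5.7 to 8.6 CPM in KO and 10.3 to 21.8 in R, lower in KO (edgeR adjusted p = 0.01). In experiment 3 the libraries labelled KO held 7.02 to 8.38 CPM. DE held 4.62 to 14.9 and E 0 to 10.8, both overlapping KO. PE, at 0 to 4.18, lay wholly below KO, as was so for 20.7% of genes, without passing the test (edgeR adjusted p = 0.15). The gene was thus not lower in KO than in WT libraries, and every direction below rests on the labels. Ovgp1, an oviduct secretory gene, stood at 2970 to 7040 CPM in all PE libraries, in DE replicates 1, 2 and 4 and in E replicate 3, and at 1.3 to 3.0 CPM in DE replicate 3 and E replicates 1, 2 and 4. Different oviduct content and exchanged labels of DE replicate 3 and E replicate 3 cannot be told apart here, so the DE and E values of those libraries are uncertain in that sense. The part of either in the stage comparisons was not tested.

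**Figure D1:**
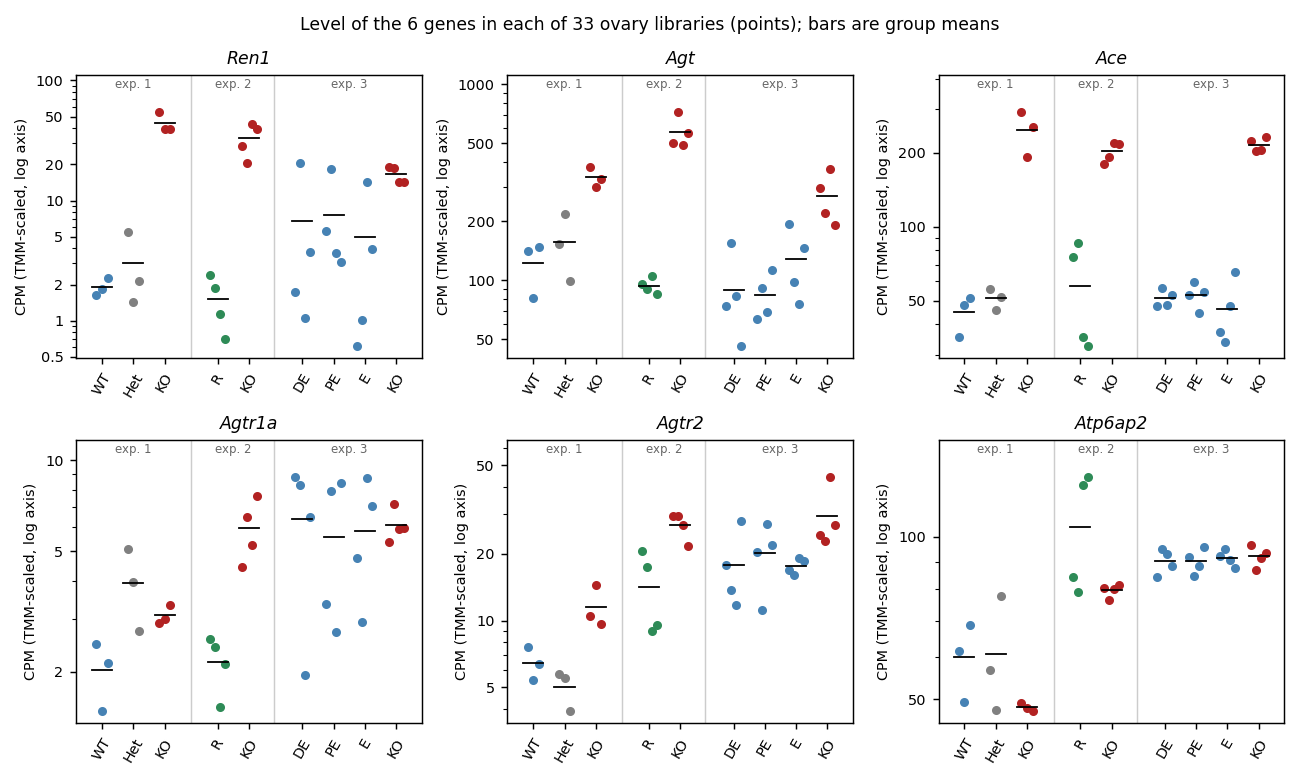
Level of each of the 6 genes in each of the 33 libraries, in CPM on a log axis, by group and experiment; points are libraries and bars are group means. The Ace points of the KO groups (red) lie above all points of the other groups in each experiment, the Ren1 points of the cycling groups of experiment 3 spread over 33.3-fold, and the Atp6ap2 points of experiment 3 lie between 84.4 and 96.8.

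Per kilobase of exon, the scale on which genes can be compared within a library, Agt was the most abundant of the 6 in each group by its mean. Its mean level ran from 44.5 ± 11.9 CPM per kilobase (SD, n = 4) in PE to 302 ± 56.1 (SD, n = 4) in the KO group of experiment 2. Atp6ap2 came next in the WT, Het, R, DE, PE and E groups, at 22.9 to 39.9 CPM per kilobase by group mean, and Ace came next in the 3 KO groups, at 38.3 to 46.6. The order at the bottom also differed between groups. In the KO group of experiment 1 Ren1 reached 26.9 ± 5.23 CPM per kilobase (SD, n = 3), above Atp6ap2 at 18.5 ± 0.338 and both angiotensin receptors. In the WT group of experiment 1 Ren1 was at 1.16 ± 0.19, between Agtr1a at 0.73 ± 0.182 and Agtr2 at 1.93 ± 0.33 (SD, n = 3 each), and these 3 ranges did not overlap. The levels of different experiments were scaled apart and are not compared by a test.

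**Figure D2:**
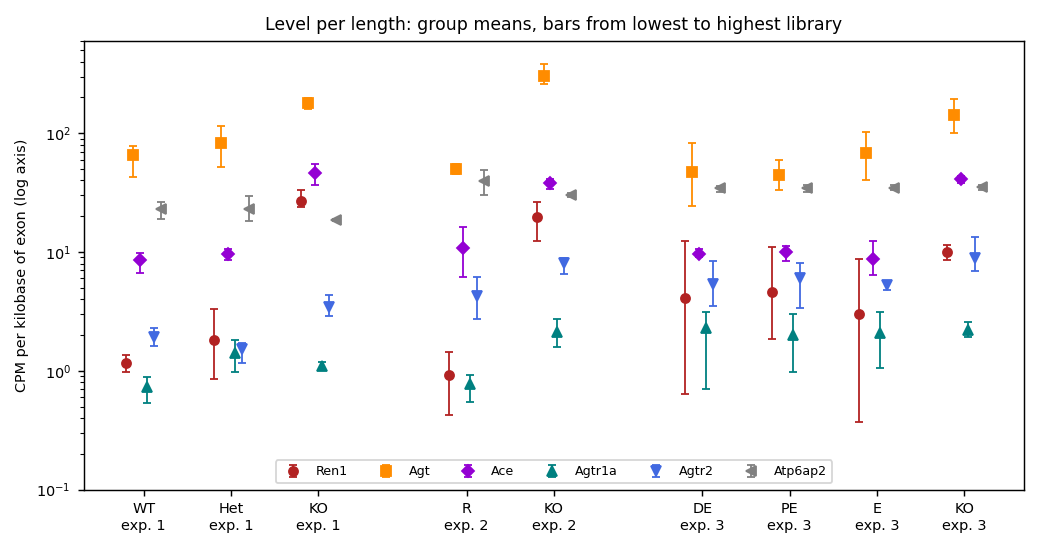
Level per kilobase of exon of the 6 genes in the 9 groups, on a log axis; symbols are group means and bars run from the lowest to the highest library. Agt is the highest symbol in each group, and the Ren1 symbol (red) moves from 1.16 in the WT group to 26.9 in the KO group of experiment 1.

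In the ovaries labelled KO of experiment 1, the 3 genes that make angiotensin II rose together against WT, and neither the receptors nor Atp6ap2 passed the test. Of the 6 genes, 3 were higher and 0 lower, where 4.53% of the 17223 genes tested were called higher. The median log2 fold change of the 6 genes was 1.15, beside -0.01 over all genes tested. Tests are edgeR's quasi-likelihood test with Benjamini-Hochberg adjustment over all genes tested, at a threshold of 0.05. In the same experiment 4 of 6 were higher against Het, with 9.1% of genes called higher. Between Het and WT 0 of 6 were called in the edgeR test, where 15 genes in all were called by edgeR, 355 by DESeq2 and 1783 had an unadjusted p under 0.05 in edgeR. The background of calls higher in Het was 0.0871%. In experiment 2, 5 of 6 were higher in KO than in R, with 16.2% of the 16871 genes tested called higher and a median log2 fold change of the 6 genes of 1.64. In experiment 3, KO against DE called 2 of 6 higher (background 11.6%), KO against PE 2 (background 16.3%) and KO against E 1 (background 8.98%). No member was called lower in any of these comparisons. The comparisons of one experiment share their KO libraries and are not independent of each other. In bulk tissue, fewer cells of a type and less RNA per cell cannot be told apart.

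**Figure D3:**
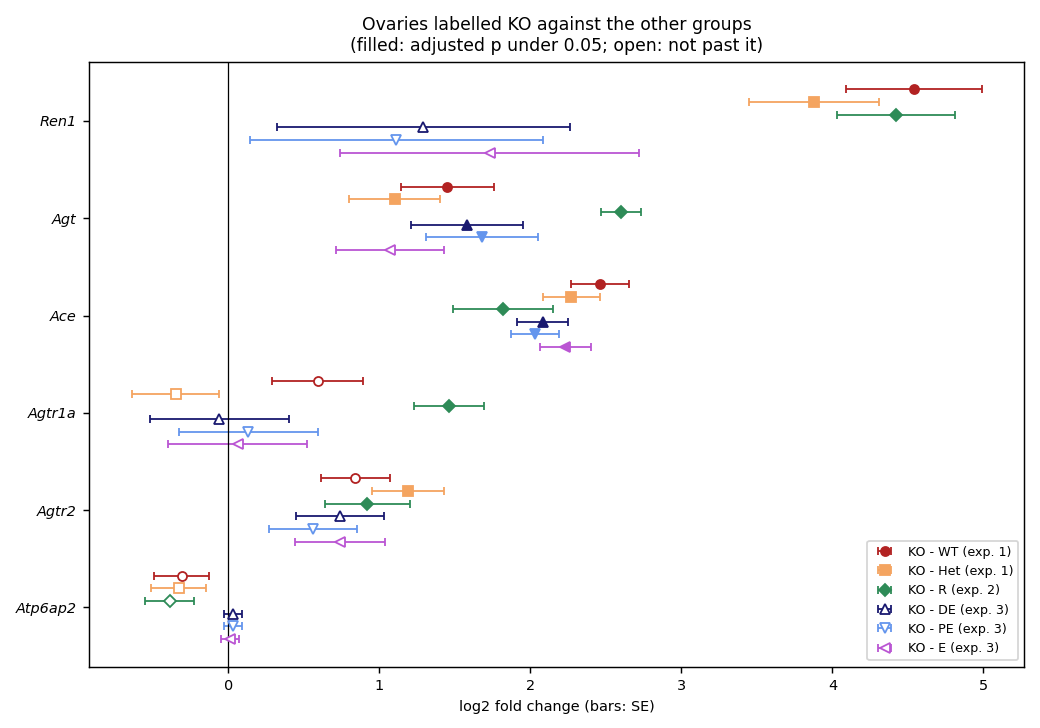
Log2 fold change of each gene between KO and each of the other groups, one symbol per comparison; bars are standard errors and filled symbols passed an adjusted p of 0.05. Ace is filled in all 6 comparisons at 1.82 to 2.46, Ren1 is filled against WT, Het and R only, and Atp6ap2 is open throughout.

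Agt, the substrate of renin, was the most abundant member and rose in 5 of the 6 comparisons of KO. The WT libraries of experiment 1 held 141, 80.9 and 148 CPM, the Het libraries 154, 217 and 98.9, and the KO libraries 377, 301 and 331. All KO libraries lay above all WT libraries, as was so for 18.3% of genes, and above all Het libraries, as was so for 19.1%, while WT and Het overlapped. Agt was 2.73-fold higher in KO than in WT (log2 fold change 1.45 ± 0.31 SE, adjusted p = 0.027) and 2.15-fold higher than in Het (1.10 ± 0.30 SE, adjusted p = 0.039). Both calls are narrow. Leaving out any library but WT replicate 3 ended the call against WT, with adjusted p up to 0.097, and leaving out any library but Het replicate 2 ended the call against Het, with adjusted p up to 0.12. With no filter on low counts the adjusted p was 0.052 against WT and 0.087 against Het.

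In experiment 2 the separation of Agt was wider. The R libraries held 95.6, 90.2, 105 and 85.4 CPM and the KO libraries 504, 723, 492 and 562. No R library came near the KO range, as the 2 groups did not overlap for 17.4% of genes in the direction of KO, and the R libraries differed from each other by 1.23-fold at most. Agt was 6.06-fold higher in KO (95% interval 4.93 to 7.47, log2 fold change 2.60 ± 0.13 SE, adjusted p = 9e-06), and the call held without each of the 8 libraries in turn. The KO effect on Agt in experiment 2 exceeded that in experiment 1 by 1.17 ± 0.47 (SE) on the log2 scale, which did not pass the test over all genes (adjusted p = 0.86). None of the 6 genes was called in that test, where 0.0211% of genes were, or for experiment 3 against experiment 1, where 0.1% were.

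In experiment 3 Agt varied among the cycling libraries. The DE libraries held 74.1, 156, 82.9 and 46.2 CPM, the PE libraries 63.4, 91.2, 69.2 and 113, the E libraries 193, 98.0, 75.8 and 147, and the KO libraries 297, 220, 368 and 191. E replicate 1 was the only cycling library of the 12 that reached the lowest KO library, so KO did not overlap DE, as was so for 14.5% of genes, or PE, as was so for 20.7%. Agt was 2.99-fold higher in KO than in DE (log2 fold change 1.58 ± 0.37 SE, adjusted p = 0.0088) and 3.20-fold higher than in PE (1.68 ± 0.37 SE, adjusted p = 0.0048). Against E the log2 fold change was 1.07 ± 0.36 (SE, adjusted p = 0.056), which did not pass. Without E replicate 1 it was 1.29 with an adjusted p of 0.036, and DESeq2 gave an adjusted p of 0.017.

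Ren1, which encodes the enzyme that opens the pathway, had the largest fold differences of the 6 genes between KO and the other groups in experiments 1 and 2. This was not so in experiment 3, where Ace exceeded it against each stage and Agt against DE and PE. In experiment 1 the WT libraries held 1.63, 1.85 and 2.26 CPM, the Het libraries 5.45, 1.42 and 2.15, and the KO libraries 54.6, 39.7 and 39.6. The lowest KO library lay several-fold above the highest of the other 6, which was Het replicate 1. KO lay wholly above WT for 18.3% of genes and wholly above Het for 19.1%. Ren1 was 23.2-fold higher in KO than in WT (95% interval 11.4 to 47.3, log2 fold change 4.54 ± 0.45 SE, adjusted p = 0.0015) and 14.8-fold higher than in Het (3.88 ± 0.43 SE, adjusted p = 0.0011). Among the 780 genes called higher in KO than in WT, Ren1 ranked 22 by fold change, Ace 68 and Agt 194. Both Ren1 calls held without each library in turn.

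The R libraries of experiment 2 held 2.38, 1.87, 1.13 and 0.708 CPM of Ren1 and the KO libraries 28.5, 20.7, 43.4 and 39.4. The 2 groups did not overlap, as was so for 17.4% of genes higher in KO. The difference was 21.4-fold (95% interval 11.6 to 39.7, log2 fold change 4.42 ± 0.39 SE, adjusted p = 0.00016), close to that of experiment 1: the difference between the 2 experiments' effects was -0.09 ± 1.20 (SE) on the log2 scale in the fit over all libraries. The 95% interval of that ratio of folds, 0.168 to 5.2, is wide in either direction.

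Experiment 3 gave another picture for Ren1. The DE libraries held 1.72, 20.4, 1.05 and 3.72 CPM, the PE libraries 5.55, 18.2, 3.69 and 3.1, the E libraries 0.614, 1.02, 14.4 and 3.98, and the KO libraries 19.0, 18.7, 14.2 and 14.3. In each cycling stage 1 library lay within or above the KO range, and the other 9 of the 12 cycling libraries lay below the lowest KO library. The highest cycling library exceeded the lowest by 33.3-fold. Ren1 did not pass the test against DE (log2 fold change 1.29 ± 0.97 SE, adjusted p = 0.35), PE (1.11 ± 0.97 SE, adjusted p = 0.40) or E (1.73 ± 0.99 SE, adjusted p = 0.23). The 95% intervals of the fold were 0.575 to 10.4, 0.511 to 9.12 and 0.76 to 14.4. With this spread they hold both no difference and a several-fold rise in KO. Without DE replicate 2 the value against DE was 2.94 (adjusted p = 0.052), without PE replicate 2 that against PE was 2.00 (adjusted p = 0.17) and without E replicate 3 that against E was 3.13 (adjusted p = 0.051). Without DE replicate 3 and E replicate 3 together, the value against E was 3.14 and passed (adjusted p = 0.033). The KO effect on Ren1 in experiment 3, taken against the mean of the 3 stages, was smaller than that in experiment 1 by 3.17 on the log2 scale, written as -3.17 ± 1.11 (SE), with an unadjusted p of 0.0085 and an adjusted p of 0.15.

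The cycling libraries with high Ren1 also had high Cyp11b1, a steroid hydroxylase typical of the adrenal cortex. Cyp11b1 was at 15.0 CPM in DE replicate 2, 27.5 in PE replicate 2 and 21.0 in E replicate 3, against 3.51 or less in 8 of the other 9 cycling libraries. E replicate 4 was the exception, with 23.1 CPM of Cyp11b1 and 3.98 CPM of Ren1. In experiment 1 the Het library with the most Ren1, replicate 1, likewise held the most Cyp11b1, 16.4 CPM against 0.518 and 0.846 in the other Het libraries. Cyp17a1, the androgen-making enzyme of theca cells, was low in the same libraries, at 4.95, 2.71, 5.34, 2.5 and 6.18 CPM in that order of mention. It was also low, at 10.7 CPM, in DE replicate 1 and, at 5.88 CPM, in E replicate 1, whose Ren1 was the lowest of the cycling libraries. The list of 6 adrenal cortex markers includes Cyp11b1 itself, so its sum is not independent of the Cyp11b1 values. Mrap had the largest summed count of that list in each group, at 14.9 to 127 CPM over all libraries. The summed level of the list was highest in these 5 libraries, at 83.1 CPM in DE replicate 2, 122 in PE replicate 2, 80.4 in E replicate 3, 108 in E replicate 4 and 145 in Het replicate 1. It was at 16.1 to 62.6 in the other 8 cycling libraries, 38.0 and 51.2 in the other Het libraries and 22.0 to 34.5 in KO of experiment 3. Akr1b7, another of these markers, was at 21.9 CPM in DE replicate 2, which also held 3.17 CPM of Mc2r, the receptor for the pituitary hormone that drives the adrenal cortex. The other 4 libraries held 0.979 to 3.06 CPM of Akr1b7 and 0.122 to 0.648 of Mc2r, which was also high, at 3.19 CPM, in PE replicate 4, whose Ren1 was the lowest of PE. Cyp11b2 was at 0 to 0.0753 CPM in every library and Cyp21a1 at 0.392 CPM or less in these 5. The part of adrenal tissue in the Ren1 values was not tested.

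In the KO libraries the adrenal markers went different ways. Cyp11b1 was at 0.953 CPM or less in all 11 of them, while Cyp17a1 ran from 621 to 1590 CPM. Of the adrenal markers tested, 2 of 4 were higher in KO than in WT, 2 of 4 than in Het and 2 of 3 than in R. The shares of all genes tested called higher there were 4.53%, 9.1% and 16.2%. Against DE, PE or E 0 markers were higher, where 11.6%, 16.3% and 8.98% of genes were. Against E 1 marker was lower, where 8.98% of genes were. Akr1b7 was at 3.38 to 16.1 CPM in KO and 0.178 to 0.848 in WT of experiment 1, at 1.68 to 4.83 in KO and 0.303 to 0.714 in R, and at 0.931 to 6.69 in KO of experiment 3. Cyp21a1 was at 1.98 to 4.43, 3.41 to 18.6 and 0.641 to 8.0 CPM in KO of experiments 1, 2 and 3, and at 0.798 or less in all 22 other libraries. The summed adrenal list was at 46.2 to 73.9 CPM in KO and 17.9 to 48.9 in WT of experiment 1, and at 25.2 to 41.6 in KO and 20.5 to 36.8 in R, ranges that overlapped. Kidney, the main site of renin in the body, left little trace. Umod, Slc34a1, Slc12a1 and Kap, defining kidney transcripts, reached at most 5, 5, 4 and 2 counts in any library. The summed kidney list of 8 genes was nonetheless higher in KO, at 13.2 to 18.2 CPM beside 2.01 to 4.57 in WT and Het, 16.0 to 20.1 beside 3.7 to 5.27 in R and 9.12 to 12.1 beside 3.04 to 7.72 in the cycling groups. Within that list Aqp2, a water channel, was at 9.22 to 13.8 CPM in KO and 0.245 to 1.33 in WT and Het of experiment 1, 10.5 to 14.2 in KO and 0.354 to 1.49 in R, and 3.54 to 6.19 in KO and 0.127 to 2.62 in the cycling groups. The part of kidney tissue in the Ren1 values was not tested.

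**Figure D4:**
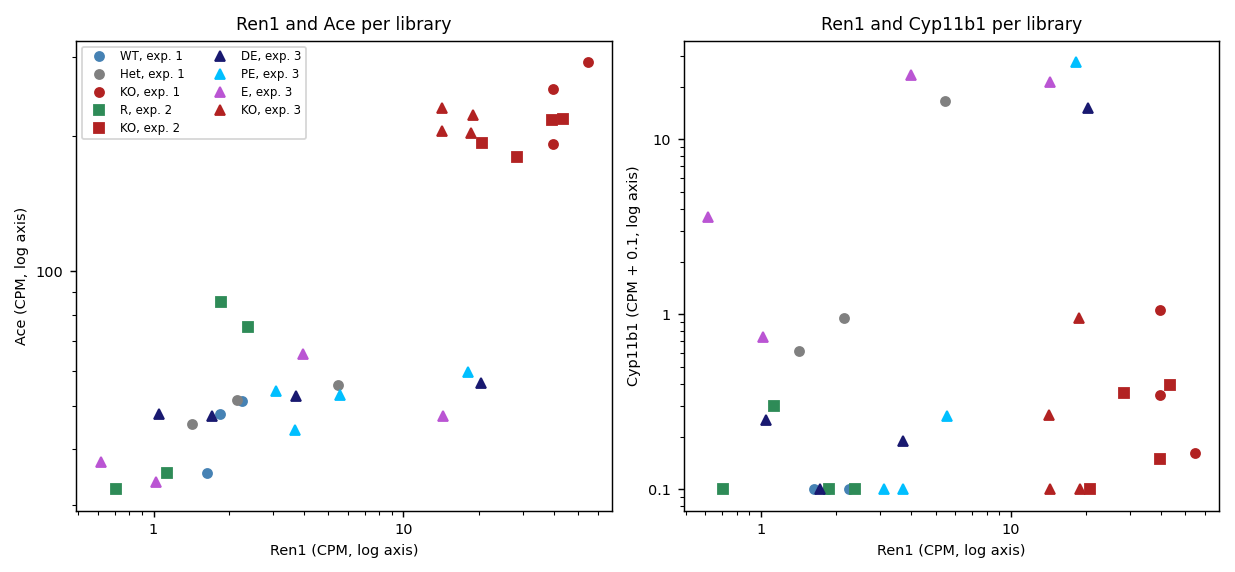
Ren1 level of each library against its Ace level (left) and its Cyp11b1 level plus 0.1 (right), in CPM on log axes; colours and shapes give group and experiment. On the left the KO libraries form a separate set high in both genes, and the cycling libraries at 14.4 to 20.4 CPM of Ren1 keep the Ace level of other cycling libraries; on the right those libraries sit at 15.0 to 27.5 CPM of Cyp11b1 and the KO libraries at 0.953 or less.

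Ace, the converting enzyme, separated KO from the other groups in each experiment. In experiment 1 the WT libraries held 35.4, 48.0 and 51.4 CPM, the Het libraries 55.8, 45.6 and 51.6, and the KO libraries 293, 192 and 255. The lowest KO library stood above the highest of the others by a wide margin. A lack of overlap alone was common, with KO wholly above WT for 18.3% of genes and wholly above Het for 19.1%. Ace was 5.49-fold higher in KO than in WT (95% interval 4.07 to 7.4, log2 fold change 2.46 ± 0.19 SE, adjusted p = 0.00048) and 4.83-fold higher than in Het (2.27 ± 0.19 SE, adjusted p = 0.00032).

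In experiment 2 the R libraries fell into a higher and a lower pair for Ace, 75.0 and 85.5 CPM in replicates 1 and 2 and 35.4 and 32.6 in replicates 3 and 4. The KO libraries held 180, 193, 219 and 218 CPM. The KO libraries lay above both pairs, as was so for 17.4% of genes against R. Ace was 3.54-fold higher in KO on average (95% interval 2.05 to 6.1, log2 fold change 1.82 ± 0.33 SE, adjusted p = 0.0063). The same pairs of R libraries showed in other genes. Agtr2 was at 20.6 and 17.5 CPM in replicates 1 and 2 and 9.02 and 9.51 in replicates 3 and 4, Atp6ap2 at 84.3 and 79.2 against 125 and 129, and Cyp17a1 at 363 and 342 against 141 and 118. Fshb was at 10.3 and 12.0 CPM in replicates 1 and 2 and 18.2 and 21.8 in replicates 3 and 4. The summed level of the luteal markers was 10100 and 11600 CPM against 21600 and 24600. That of the oviduct markers did not split so, at 16.1 and 577 against 25.2 and 25.6. The labels give no reason for the pairs, and what sets them apart was not tested.

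In experiment 3 Ace was the steadiest of the 3 angiotensin-forming genes. The DE libraries held 47.6, 56.4, 48.1 and 52.6 CPM, the PE libraries 52.8, 59.5, 44.3 and 54.1, the E libraries 37.4, 33.9, 47.6 and 65.3, and the KO libraries 223, 203, 206 and 231. No cycling library reached a KO library. KO lay wholly above DE for 14.5% of genes, above PE for 20.7% and above E for 17.3%. The cycling libraries spanned 1.93-fold from lowest to highest for Ace, against 33.3-fold for Ren1. Ace was 4.22-fold higher in KO than in DE (log2 fold change 2.08 ± 0.17 SE, adjusted p = 4.2e-06), 4.10-fold higher than in PE (2.03 ± 0.16 SE, adjusted p = 3.8e-06) and 4.69-fold higher than in E (2.23 ± 0.17 SE, adjusted p = 2.4e-06). The libraries with high Ren1, DE replicate 2, PE replicate 2 and E replicate 3, held 56.4, 59.5 and 47.6 CPM of Ace, inside the range of the other cycling libraries. All 6 KO calls of Ace held without each library in turn.

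Ace is best known from the endothelium, and the endothelial markers went the other way. Their summed level was 619 to 700 CPM in WT, 665 to 720 in Het and 421 to 514 in KO of experiment 1, 506 to 745 in R and 395 to 436 in KO of experiment 2, and 491 to 743 in the cycling groups and 412 to 455 in KO of experiment 3. Of the 10 endothelial markers, 6 were lower and 1 higher in KO than in WT, and 9 were lower and 1 higher in KO than in R. The smooth muscle and pericyte list had 3 of 10 lower in KO than in WT and 7 of 10 lower in KO than in R, with 0 higher in both. Of the theca and interstitial list, 3 of 10 were higher and 1 lower in KO than in WT, and 6 were higher and 2 lower in KO than in R. Of 10 luteal markers, 2 were lower in KO than in WT and 9 than in R, and of 10 oocyte markers, 9 were higher in KO than in WT and 10 than in R. Over all genes tested, 4.53% were higher and 3.34% lower in KO than in WT, and 16.2% higher and 15.8% lower in KO than in R. The part of a changed mix of cells in the values of the 6 genes was not tested.

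Agtr1a, the receptor through which most classical actions of angiotensin II run, was near the lower end of detection and differed between KO and R only. In experiment 1 the WT libraries held 2.48, 1.48 and 2.14 CPM, the Het libraries 5.08, 3.95 and 2.73, and the KO libraries 2.91, 3.0 and 3.32. Both Het and KO lay wholly above WT, as was so for 6.11% of genes higher in Het and 18.3% of genes higher in KO. Neither passed the test (log2 fold change 0.94 ± 0.30 SE for Het, adjusted p = 0.35, and 0.59 ± 0.30 SE for KO, adjusted p = 0.25). In experiment 2 the R libraries held 2.56, 2.41, 1.53 and 2.12 CPM and the KO libraries 4.43, 6.5, 5.26 and 7.61. The groups did not overlap, as was so for 17.4% of genes higher in KO. Agtr1a rose 2.75-fold in KO (95% interval 1.92 to 3.95, log2 fold change 1.46 ± 0.23 SE, adjusted p = 0.0017).

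In experiment 3 Agtr1a spread widely in each cycling stage and narrowly in KO. The DE libraries held 8.78, 8.31, 1.95 and 6.47 CPM, the PE libraries 3.35, 7.9, 2.7 and 8.42, the E libraries 4.74, 2.93, 8.71 and 7.04, and the KO libraries 5.36, 7.19, 5.92 and 5.96. Of the 12 cycling libraries, 7 lay at or above the lowest KO library, so the groups overlapped fully. The log2 fold changes of KO were -0.06 ± 0.46 (SE) against DE, 0.13 ± 0.46 against PE and 0.06 ± 0.46 against E, with adjusted p of 0.94, 0.85 and 0.94. The 95% interval of the fold against DE was 0.486 to 1.89.

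Agtr2, the other angiotensin II receptor, was the more abundant of the 2 per length in all libraries but 1 of Het. In experiment 1 the WT libraries held 7.57, 5.38 and 6.35 CPM, the Het libraries 5.75, 5.5 and 3.9, and the KO libraries 10.5, 14.5 and 9.65. KO lay above both other groups without overlap, as was so for 18.3% of genes against WT and 19.1% against Het. Agtr2 rose 2.28-fold in KO against Het (log2 fold change 1.19 ± 0.24 SE, adjusted p = 0.011), while against WT the value was 0.84 ± 0.23 (SE, adjusted p = 0.06), past the threshold in DESeq2 only (adjusted p = 0.017).

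In experiment 2 Agtr2 was at 20.6, 17.5, 9.02 and 9.51 CPM in R and at 29.4, 29.4, 26.9 and 21.6 in KO. All KO libraries lay above all R libraries, the closest by a small margin, as was so for 17.4% of genes. Agtr2 was 1.89-fold higher in KO (log2 fold change 0.92 ± 0.28 SE, adjusted p = 0.036). Leaving out 5 of the 8 libraries one at a time, KO replicates 1, 2 and 3 and R replicates 3 and 4, ended that call, with adjusted p up to 0.089, and so did dropping the filter on low counts (adjusted p = 0.097).

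In experiment 3 the DE libraries held 17.7, 13.7, 11.8 and 27.9 CPM of Agtr2, the PE libraries 20.3, 11.1, 27.1 and 21.9, the E libraries 16.9, 16.0, 19.1 and 18.6, and the KO libraries 24.2, 22.9, 44.1 and 27.0. Only the E libraries lay wholly below KO, as was so for 17.3% of genes. The log2 fold changes of KO were 0.74 ± 0.29 (SE) against DE, 0.56 ± 0.29 against PE and 0.74 ± 0.30 against E, with adjusted p of 0.079, 0.16 and 0.094, and none passed. Without DE replicate 4 the value against DE was 1.04 (adjusted p = 0.026).

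The balance of the receptors, Agtr2 over Agtr1a per kilobase, was lowest in Het by its median. Its median there was 1.17, with a range of 0.949 to 1.2, against 2.55 (2.49 to 3.04) in WT and 3.02 (2.44 to 4.05) in KO of experiment 1. The Het libraries did not overlap the WT and KO libraries of experiment 1. No test was made of the ratio, and no share over other genes was taken. In experiment 2 the median was 5.52 (3.75 to 6.72) in R and 4.04 (2.38 to 5.57) in KO, and these overlapped. In experiment 3 the medians of the 4 groups lay between 2.6 and 3.79. The PE libraries alone spanned 1.18 to 8.4, and the lowest of them lay inside the Het range.

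Atp6ap2, the (pro)renin receptor gene, passed the test in no comparison. In experiment 1 the WT libraries held 61.5, 49.4 and 68.8 CPM, the Het libraries 56.7, 47.8 and 77.9, and the KO libraries 49.3, 48.2 and 47.5. The KO libraries lay just below the lowest WT library, as was so for 17.0% of genes, and the log2 fold change was -0.31 ± 0.18 (SE, adjusted p = 0.32). In experiment 2 R held 84.3, 79.2, 125 and 129 CPM and KO 80.4, 76.5, 80.2 and 81.6, with a log2 fold change of -0.39 ± 0.16 (SE, adjusted p = 0.10). DESeq2 put this at an adjusted p of 0.043, and edgeR without R replicate 2 at 0.026. In experiment 3 all 16 libraries lay between 84.4 and 96.8 CPM. The log2 fold changes of KO there were 0.01 to 0.03 with SE of 0.06, and the 95% interval of the fold against DE was 0.936 to 1.12.

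The estrous stages did not separate any of the 6 genes. For PE against DE, E against PE and E against DE, edgeR called 0 of 6, and 0 of all 16944 genes tested, a background of 0.0%. Genes with an unadjusted p under 0.05 numbered 407, 3170 and 1796, and DESeq2 called 0, 363 and 10 genes, with none of the 6 among them. The fold changes of the 6 genes ran from -0.62 ± 0.98 (SE) for Ren1 to 0.61 ± 0.36 (SE) for Agt, both on the log2 scale for E against PE. DE replicate 3 and E replicate 3 differed from the other libraries of their stage in Ovgp1, and without both libraries edgeR called 2656 genes for E against PE and 2750 for E against DE. None of the 6 genes was called between stages there either.

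Other genes of the pathway were called in both directions. Of 19 such genes with a table entry, 14 passed the filter, and 2 were higher and 2 lower in KO than in WT, with a median log2 fold change of 0.00 beside -0.01 over all genes. Counts of higher and lower genes were 2 and 3 against Het, 3 and 2 against R, 0 and 3 against DE, 0 and 3 against PE, and 2 and 3 against E. Their medians were between -0.20 and 0.02, beside -0.02 to 0.00 for all genes tested. The shares of all genes tested called higher and lower were 4.53% and 3.34% against WT, 9.1% and 7.9% against Het, 16.2% and 15.8% against R, 11.6% and 13.5% against DE, 16.3% and 17.5% against PE, and 8.98% in each direction against E. With 14 genes, counts of 2 or 3 are near several of these shares and are not read as a result about the list.

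Enpep, aminopeptidase A, which turns angiotensin II into angiotensin III, was lower in KO in all 6 comparisons, which share KO libraries within an experiment. It was at 61.6 to 84.2 CPM in WT and 31.0 to 35.1 in KO of experiment 1, at 60.3 to 73.5 in R and 34.3 to 45.9 in KO of experiment 2, and at 53.7 to 125 in the cycling groups and 22.3 to 41.3 in KO of experiment 3. No KO library overlapped another group, as was so for 17.0% of genes lower in KO than in WT. That share is not given here for the other comparisons, so the lack of overlap in them is not read as a result. The log2 fold changes ran from -0.75 ± 0.10 (SE, adjusted p = 0.00054) against R to -1.26 ± 0.23 (SE, adjusted p = 0.0023) against DE. Anpep, aminopeptidase N, which trims angiotensin III further, was lower in KO against WT (-0.62 ± 0.16 SE, adjusted p = 0.046), Het (-0.78 ± 0.16 SE, adjusted p = 0.012), DE (-1.86 ± 0.49 SE, adjusted p = 0.017) and PE (-1.44 ± 0.49 SE, adjusted p = 0.036). It was not called against R, where KO held 42.4 to 66.3 CPM and R 42.9 to 57.2.

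Rnpep, aminopeptidase B, was at 74.6 to 86.5 CPM in KO and 49.3 to 51.2 in WT, a log2 fold change of 0.68 ± 0.09 (SE, adjusted p = 0.0039), and it was also higher against Het (0.68), R (0.39) and E (0.61). Mme, neprilysin, which can bypass angiotensin II by cutting angiotensin I directly, was higher in KO against R (0.75 ± 0.11 SE, adjusted p = 0.0017) and E (1.35 ± 0.34 SE, adjusted p = 0.014). Klk1, a tissue kallikrein, was lower in KO of experiment 3, at 0.417 to 1.44 CPM against 1.75 to 7.43 over the cycling groups, with log2 fold changes of -2.14 to -3.05. In experiment 2 it was at 2.15 to 6.41 CPM in KO and 1.47 to 2.66 in R, a value in the other direction that did not pass (1.13 ± 0.39 SE, adjusted p = 0.054), and it was not called in experiment 1 (-1.52 ± 0.80 SE against WT, adjusted p = 0.28). The mast-cell proteases were low throughout. Cpa3 was higher in KO than in WT (3.88 to 9.03 against 0.68 to 1.66 CPM, log2 fold change 2.40 ± 0.55 SE, adjusted p = 0.032) and Cma1, a chymase that can make angiotensin II without Ace, was higher in KO than in R (1.53 to 2.69 against 0.641 to 1.16 CPM, log2 fold change 1.21 ± 0.29 SE, adjusted p = 0.012).

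Atp6ap2 also belongs to the vacuolar proton pump, and the pump's subunits were lower in KO more often than higher. Of 14 subunit genes, 0 were higher in each comparison, and 3 were lower against WT, 3 against Het, 8 against R, 5 against DE, 9 against PE and 5 against E, where 3.34%, 7.9%, 15.8%, 13.5%, 17.5% and 8.98% of all genes tested were called lower. Atp6v1a, the catalytic subunit, and Atp6v1h were among them in all 6 comparisons, at log2 fold changes of -0.54 ± 0.13 (SE, adjusted p = 0.039) and -0.43 ± 0.10 (SE, adjusted p = 0.038) against WT. The list's medians ran from -0.12 to -0.31, and Atp6ap2 stood at -0.31, -0.33 and -0.39 in experiments 1 and 2 and at 0.01 to 0.03 in experiment 3.

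**Figure D5:**
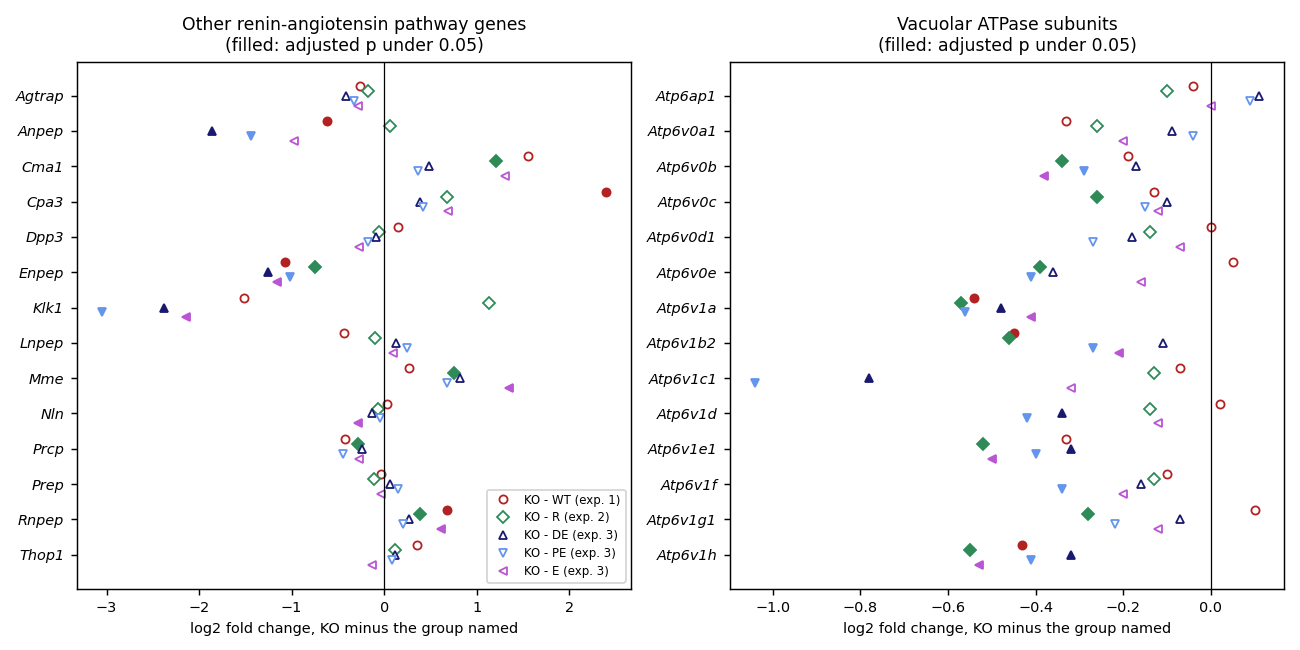
Log2 fold change between KO and the group named for 14 other renin-angiotensin pathway genes (left) and 14 vacuolar ATPase subunits (right); filled symbols passed an adjusted p of 0.05. Enpep is filled and below 0 in each comparison plotted, pathway genes lie on both sides of 0, and no subunit is filled above 0.

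The genes whose pattern was most like each member's were ranked by Pearson correlation over the 33 libraries after each experiment's mean was removed, among 11962 genes with a mean of at least 5 CPM. The points share library depth and the KO contrast, so the values are descriptions. For Ren1 the nearest were Fkbp7 (r = 0.917), H6pd (0.906), Ddost (0.905) and Lgi3 (0.905), of which Fkbp7, H6pd and Ddost encode proteins of the endoplasmic reticulum. For Agt they were Hsd17b3 (0.915), Pdgfra (0.893), Cst3 (0.892) and Wnk4 (0.889). Hsd17b3, the enzyme that makes testosterone in the testis, was at a mean of 0.283 CPM in WT and 9.17 in KO of experiment 1, and at 0.32 in R and 38.0 in KO of experiment 2.

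For Ace the nearest were Ptgis (0.965), Actn3 (0.962), Isyna1 (0.955) and Slc9a2 (0.952), the closest matches of any member. Ptgis, prostacyclin synthase, was at 57.6 to 78.9 CPM in WT and 182 to 240 in KO of experiment 1, 47.9 to 82.7 in R and 194 to 230 in KO of experiment 2, and 54.2 to 83.2 in the cycling groups and 210 to 237 in KO of experiment 3. For Agtr1a the nearest were Sphk1 (0.831), Acss3 (0.778), Upk3b (0.777) and Pdgfrl (0.767), and for Agtr2 they were Lpar1 (0.846), Igf2bp2 (0.826), Ptk7 (0.825) and Lpcat4 (0.812). For Atp6ap2 they were Aldh4a1 (0.844), Rdh16f1 (0.835), Reep5 (0.826) and Cat (0.82), the last being catalase. Among the members themselves, the correlation of Ren1 with Ace was 0.86, that of Agt with Ace 0.798 and that of Ren1 with Agt 0.726, while Atp6ap2 was negatively correlated with each of the other 5, at -0.386 to -0.573.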

How the data were processed

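Per the labels' protocols, column-purified, DNase-treated ovary RNA was used, and KAPA chemistry followed poly(A) selection in experiment 3; for experiments 1 and 2 neither kit nor strand setting is given in the labels. The authors deposited expected counts per gene, estimates that need not be whole numbers (10.5% to 20.1% of values per library were not), in 1 table of 33 libraries. Salmon, DESeq2 and the build GRCm38 are named, per the submitters' processing notes, with no version or annotation given. Such estimates divide reads among near-identical genes.

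Counts were rounded. Identifiers were matched to GENCODE M21 (GRCm38), of which 54094 had a symbol and 253, with 0.00553% of counts, had none. Fits were made per experiment in R 4.3.3 by edgeR 4.0.16 (TMM, filterByExpr by group, robust glmQLFit, glmQLFTest, Benjamini-Hochberg over all genes tested). Differences between experiments were tested in 1 fit over all 33 libraries. A fold's 95% interval uses the SE and the total degrees of freedom of the edgeR fit. CPM means and SDs use TMM-scaled library sizes, and likeness used log2(CPM + 1). Alternatives were DESeq2 1.42.0, its size factors (RLE) in edgeR, no filter, a replicate block, each library left out, and DE replicate 3 with E replicate 3 left out. Libraries of 1 group differed by more than counting noise in every pair (chi-square over its degrees of freedom 5.34 to 67.7). Same-numbered libraries did not deviate together, so numbers were not taken as pairs. The script was tested on simulated data.

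Named genes are Fshb, the 6 members, Agtr1b, Ren2, called genes of the pathway list (at most 4 a comparison, by p), the 4 nearest genes of each member, and markers beside a member's result; Hsd17b3 and Ptgis were singled out, and vacuolar ATPase subunits named, after their values were seen. Members and lists were chosen with earlier results of these data known. Promoters are RefSeq's, and no protein sequence was used. From the pathway list 1 gene is not reported here.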

Additional observations from a re-analysis of the deposited data

Results flagged for a closer look

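In 36 combinations of a gene and a group of 4 libraries, 2 had 1 library farther from the rest than Dixon's 95% critical value allows, where chance alone gives about 1 in 20. The 2 flags are near that chance share, and the gaps were taken in CPM and not on a log scale. Ren1 in DE replicate 2 was at 20.4 CPM, with the other DE libraries at 1.05 to 3.72. Ren1 in PE replicate 2 was at 18.2 CPM, with the other PE libraries at 3.1 to 5.55. In these libraries Cyp11b1 was at 15.0 and 27.5 CPM, and the part of other tissue in the Ren1 values was not tested.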

How the results depend on the processing

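The log2 fold changes of Ren1 and Ace against WT, Het and R, and of Ace in experiment 3, kept their direction and passed under every alternative run. No call of a member turned its direction. Agt against WT lost its call with no filter (adjusted p = 0.052) and with the replicate block (0.063), as did Agt against Het (0.087 and 0.08), and Agtr2 against R with no filter (0.097). The replicate block changed no other call of a member; same-numbered libraries had deviations correlated at -0.13 to 0.12, -0.18 to 0.11 and -0.75 to 0.23 in experiments 1, 2 and 3, and 3 of 9, 1 of 8 and 3 of 16 libraries were closest to their own number. The cause of these changes was not tested.

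Genes called for Het against WT numbered 15, and 355 with DESeq2 and 7 with the replicate block. For KO against WT DESeq2 called 2354 against 1355. For E against DE, DESeq2 called 10 and edgeR without DE replicate 3 and E replicate 3 called 2750, against 0, and for E against PE the numbers were 363 and 2656, against 0. For the effect of experiment 2 against that of experiment 1 DESeq2 called 57 against 4, and for experiment 3 against experiment 1 554, and 6 with no filter, against 19. Leaving out 1 library at a time gave 456 to 1031 genes for KO against WT, 9 to 14 for Het against WT, 1362 to 2581 for KO against Het, 3935 to 5613 for KO against R, 2422 to 5787 against DE, 3930 to 5000 against PE, 1920 to 2779 against E, 0 to 1039 for E against DE, 0 to 1847 for E against PE, 1 to 5 and 5 to 403 for the differences from experiment 1 of experiments 2 and 3.

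Some values that were not called changed sign, and the cause was not tested. With the replicate block, E against DE gave 0.01 for Agtr2 and 0.08 for Ren1. Without DE replicate 3 and E replicate 3, Agtr1a for E against PE was -0.21, Ren1 for PE against DE -0.18, and Atp6ap2 0.02 for PE against DE and -0.03 for KO against E. Atp6ap2 for KO against E was -0.00 with DESeq2 and with RLE factors, which gave 0.00 for PE against DE. With 1 library left out the ranges were as follows. Ren1 ran from -0.10 to 0.99 for Het against WT, -1.88 to 1.21 for E against DE, -2.07 to 0.28 for E against PE, -0.72 to 1.83 for PE against DE and -0.33 to 0.18 for experiment 2 against 1. Agt ran from -0.31 to 0.31 for PE against DE and -0.22 to 0.22 for experiment 3 against 1, and Ace from -0.02 to 0.12 for PE against DE. Agtr1a ran from -0.44 to 0.10 for E against DE, -0.20 to 0.33 for E against PE, -0.50 to 0.04 for PE against DE, and for KO from -0.42 to 0.09 against DE, -0.15 to 0.39 against PE and -0.16 to 0.29 against E. Agtr2 ran from -0.17 to 0.30 for E against DE and -0.09 to 0.31 for experiment 2 against 1. Atp6ap2 ran from -0.20 to 0.17 for Het against WT, -0.01 to 0.04 for E against DE, -0.01 to 0.05 for E against PE, -0.03 to 0.03 for PE against DE, -0.19 to 0.06 for experiment 2 against 1, and for KO from -0.04 to 0.06 against DE and PE and -0.06 to 0.04 against E.

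The labels tie no library to an animal, and Fshb counts do not follow the genotype labels. Ren1 at 0.614 CPM and Agtr1a at 1.48 CPM rest on few counts, which limits their precision. Cell composition was not separated from expression per cell.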

Other observations

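Insl3, a hormone of theca and Leydig cells, was at 76.0 to 247 CPM in KO and 4.51 to 15.8 in WT of experiment 1, at 104 to 337 in KO and 1.72 to 4.33 in R, and at 28.2 to 192 in KO and 0.151 to 3.69 in the cycling groups. It is 1 of 10 theca and interstitial markers, which were called in both directions. Their summed level was 4170 to 4870 CPM in KO and 4750 to 5060 in WT of experiment 1. In experiment 2 it was 4520 to 5340 in KO and 4650 to 7750 in R. In experiment 3 it was 3620 to 4950 in KO, 2050 to 4380 in DE, 2640 to 3830 in PE and 2750 to 6240 in E.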
